A study of Mus musculus with 4 samples.

Results

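The genes described here are 49 genes for glycoproteins, laminin chains and proteoglycans of the extracellular matrix, chosen by name from a total of 27178 genes in the deposited table. They were followed in cells of neural crest origin, sorted from the gut of mouse embryos at 11.5 days post coitum. The wavefront group holds 2 libraries of cells from the leading edge of the migrating population, and the trailing group holds 2 libraries of cells taken 1 to 1.5 mm behind that edge. All cells came from Wnt1-tdT embryos, in which a Wnt1-driven transgene labels neural crest derivatives with the red fluorescent protein tdT. Both groups were freed from the gut with collagenase and dispase and sorted for tdT, and no other genotype or agent separates them in the labels. The labels do not state how many embryos entered a library or whether the libraries came from separate litters. The p-values below set group differences only against variation among these libraries, estimated with information from many genes, and that variation may be technical. The comparison asks how the RNA of cells at the front of the migration differs from that of cells behind it.

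Enteric neural crest cells enter the foregut and move down the gut through mesenchyme, and they form the neurons and glia of the enteric nervous system. The matrix they cross contains fibronectin, tenascins, laminins, microfibrils and proteoglycans, which cells bind through integrins, dystroglycan and syndecans. Basement membranes are sheets of laminin networks joined to type IV collagen by nidogens and perlecan. Microfibrils of fibrillin are a scaffold for elastic fibres and store latent TGF-beta through its binding proteins. Chondroitin sulphate proteoglycans such as versican are known to restrict neural crest cell movement in several embryonic regions. Matrix of the gut is made by mesenchyme, epithelium and crest cells themselves, and the values below are RNA levels in the sorted cells only.

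The libraries were shallow. They held 452144 and 114972 reads outside ribosomal RNA at the wavefront, against 386540 and 330644 in trailing cells. Ribosomal RNA took 15.6% and 55.5% of the wavefront reads, against 24.4% and 26.1% of the trailing reads. Levels are therefore given as scaled CPM, the reads of a gene over library sizes adjusted by TMM, a factor computed from the bulk of the genes. On this scale 1 read is worth 1.68 and 5.84 in wavefront replicates 1 and 2, against 1.89 and 2.10 in trailing replicates 1 and 2. The enteric crest marker list summed to 3994 and 1969 scaled CPM at the wavefront, against 3200 and 2404 in trailing cells, so both groups carried the labelled identity. The enteric neuron list summed to 818 and 637 scaled CPM at the wavefront, against 3492 and 3571 in trailing cells. The gut mesenchyme list summed to 413 and 982 scaled CPM at the wavefront, against 193 and 197 in trailing cells, with Twist1, Osr1, Barx1 and Myh11 at 0 in all 4 libraries. In bulk RNA, fewer cells of a type and less RNA per cell cannot be told apart.

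All 49 genes were in the table and 44 had a read, while Thbs2, Lama3, Lox, Bcan and Acan had 0 reads in every library. Whole reads were recovered from the deposited CPM, and the read filter of the count test, edgeR's quasi-likelihood F test, kept 20 of the 49. Of these 20, Tgfbi, Tnc, Fn1 and Fbn2 were higher at the wavefront and Postn was lower, at a Benjamini-Hochberg adjusted p under 0.05 over 5759 genes. The remaining 15 were not called. Over all tested genes the count test called 1.74%, with 0.399% higher and 1.34% lower at the wavefront. Both wavefront libraries lay above both trailing libraries for 8 of the 20 matrix genes and below for 5, against 18.3% and 20.9% of all tested genes. Over the 20 genes the median of the log2 fold changes (wavefront over trailing) was 0.24, against 0.01 over all tested genes, with 12 of the 20 above 0. The filter keeps a gene with enough reads for the library size in any 2 libraries, of the same group or not. These counts and medians therefore describe the genes that passed it and not all 49. Tnc and Tgfbi had enough reads in the wavefront libraries alone, and Nid2 and Fbln2 in the trailing libraries alone. Each of these genes entered the counts through the group where it is high.

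The calls depended on the test. The design set limma's moderated test on log2(CPM + 1) as the main test, with the count test beside it. This main test called 0 of the 39 matrix genes it tested and 0% of 12519 genes overall. In limma 6 of the 39 were higher and 4 lower at an unadjusted p under 0.05, a level that 6.85% of all genes reached. The lowest limma adjusted p among them was 0.68. DESeq2 called 0 of the 16 matrix genes for which it gave an adjusted p, against 0.396% of its genes. Of those 16, 6 had an unadjusted p under 0.05, against 2.35% of the genes with an adjusted p. After Benjamini-Hochberg adjustment here, the p-values in the authors' deposited table called 0 of 44 matrix genes and 0.0891% of all genes. Unadjusted, 9 of the 44 had a p under 0.05, against 0.973% of all genes. The values that follow are from edgeR unless another tool is named, and fold changes are wavefront over trailing.

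**Figure D1:**
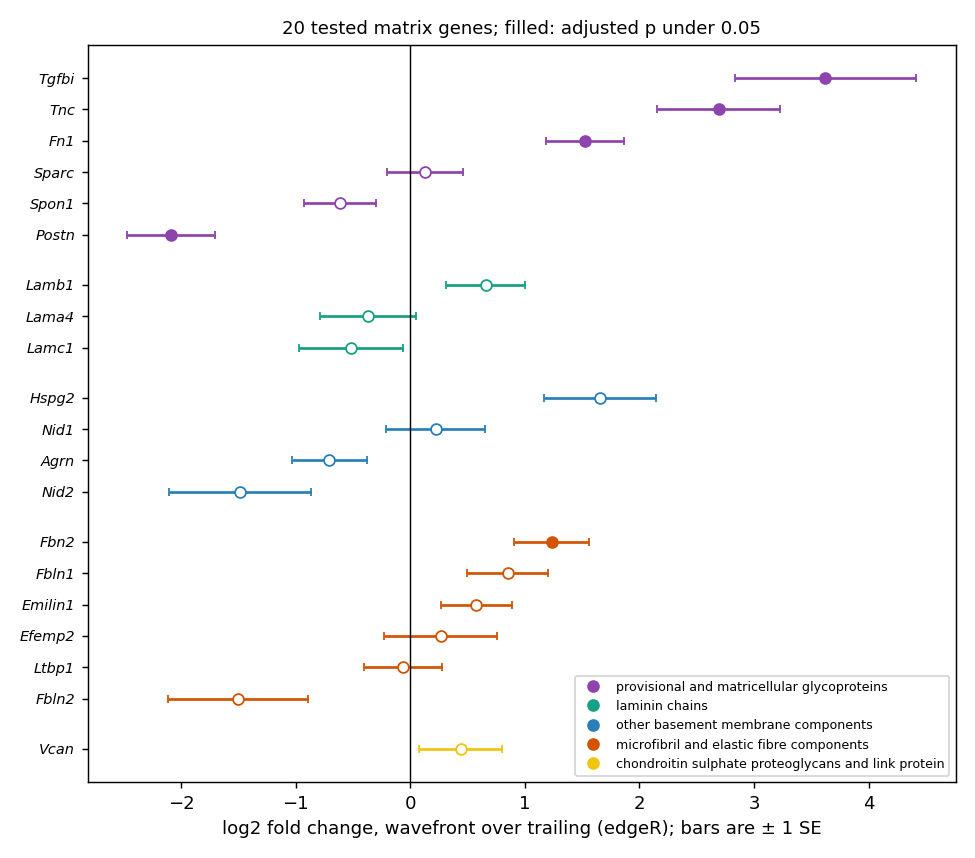
Log2 fold change, wavefront over trailing, on the x axis for the 20 matrix genes that edgeR tested, grouped by role on the y axis, with bars of 1 SE. Filled points have an adjusted p under 0.05: Tgfbi at 3.62, Tnc at 2.69, Fn1 at 1.53, Fbn2 at 1.23 and Postn at -2.09, while the laminin chains and the other basement membrane genes are all open points.

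Among the provisional and matricellular glycoproteins, the proteins that make temporary matrix or tune how cells hold on to it, 3 of the 6 tested genes rose, 1 fell and 2 did not pass. Tnc, on chromosome 4 (63959785 to 64047015, minus strand, GRCm38), encodes tenascin C, a multi-armed glycoprotein of moving and remodelling tissues that modulates cell attachment to fibronectin. It had 31 and 13 reads at the wavefront, against 3 and 6 in trailing cells. These reads are 52.1 and 76.0 scaled CPM at the wavefront, against 5.68 and 12.6 in trailing cells, and the groups do not overlap. Tnc rose by 2.69 ± 0.54 (SE) on the log2 scale, with an edgeR adjusted p of 0.00116. Without trailing replicate 2 its log2 fold change was 3.35 (adjusted p = 0.00456). Without trailing replicate 1 its adjusted p was 0.0796, and DESeq2 gave it 0.257.

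Tgfbi, on chromosome 13 (56609523 to 56639562, plus strand, GRCm38), encodes the TGF-beta-induced protein, a secreted fasciclin-domain protein that binds collagens and integrins. It had 13 and 14 reads at the wavefront, against 1 and 2 in trailing cells. On the scaled level this was 21.8 and 81.8 CPM at the wavefront, against 1.89 and 4.19 in trailing cells, so the wavefront libraries stood above the trailing ones but also apart from each other. The wavefront over trailing ratio of summed reads, scaled by the adjusted library sizes, was 11.8, with a 95% counting interval of 3.63 to 60.8. The fitted log2 fold change was 3.62 ± 0.79 (SE; edgeR adjusted p = 0.00403), and with 3 trailing reads it is no bound. Without wavefront replicate 2 the log2 fold change of Tgfbi was 2.82 with an adjusted p of 0.515, and without trailing replicate 1 its adjusted p was 0.0815. The log2 fold change was 4.64 without wavefront replicate 1 and 4.30 without trailing replicate 2, and passed in both.

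Fn1, on chromosome 1 (71585520 to 71653200, minus strand, GRCm38), encodes fibronectin, the fibrillar glycoprotein on which many embryonic cells migrate through integrins. It had 72 and 39 reads at the wavefront, against 31 and 25 in trailing cells. Its scaled level was 121 and 228 CPM at the wavefront, against 58.7 and 52.4 in trailing cells, with no overlap. Fn1 rose by 1.53 ± 0.34 on the log2 scale (SE; edgeR adjusted p = 0.00468). The Fn1 call was lost with scaling by library size alone (adjusted p = 0.583), in DESeq2 (0.366), without trailing replicate 1 (0.0868) and without trailing replicate 2 (0.200).

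Postn went the other way. It lies on chromosome 3 (54361109 to 54391037, plus strand, GRCm38) and encodes periostin, like the Tgfbi product a secreted protein with fasciclin domains. Postn had 20 and 3 reads at the wavefront, against 81 and 46 in trailing cells. Its scaled level was 33.6 and 17.5 CPM at the wavefront, against 153 and 96.4 in trailing cells, and no wavefront value reached a trailing one. Postn fell by 2.09 on the log2 scale (SE 0.38, edgeR adjusted p = 0.000329). Without wavefront replicate 1 Postn fell by 2.82 on the log2 scale (adjusted p = 0.0133). Without trailing replicate 1 its adjusted p was 0.0645, and in DESeq2 it was 0.227. Tgfbi and Postn were set against each other after their opposite calls were known, so the following ratio is a description. Within a library, where scaling cancels, the number of Tgfbi reads per Postn read was 0.650 (95% exact binomial counting interval 0.297 to 1.37) and 4.67 (1.30 to 25.3) at the wavefront. In trailing cells it was 0.0123 (0.000309 to 0.0708) and 0.0435 (0.00511 to 0.166).

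**Figure D2:**
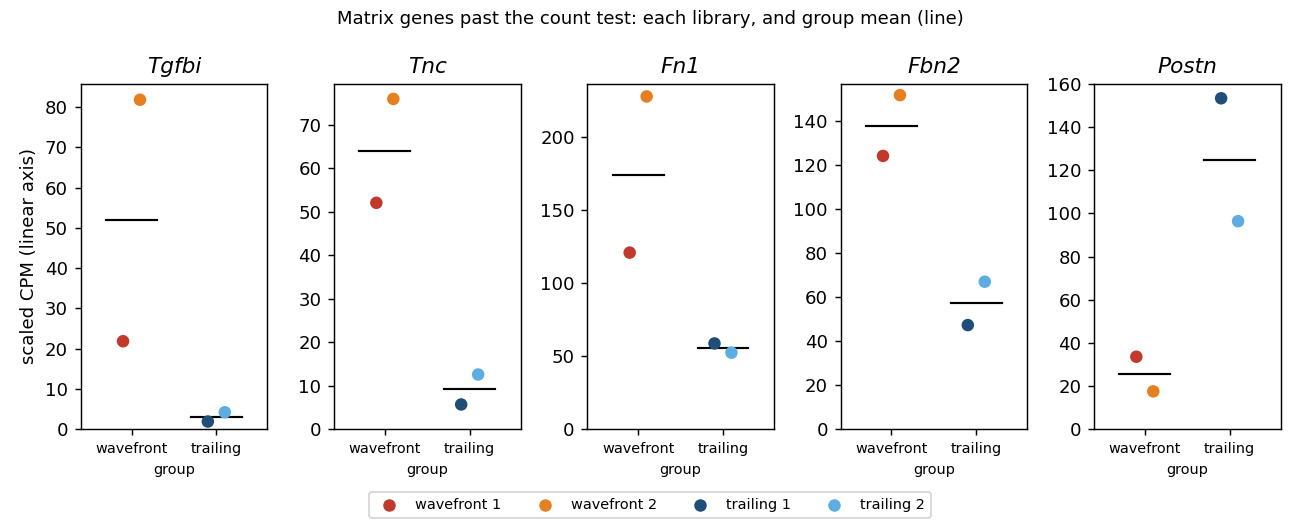
Scaled CPM (y axis, linear, from 0) of the 5 matrix genes past the count test in each library, wavefront left and trailing right, with a line at the mean of 2 libraries. Both wavefront libraries lie above both trailing ones for Tgfbi, Tnc, Fn1 and Fbn2 and below them for Postn, and the wavefront points of Tgfbi, at 21.8 and 81.8, lie far apart.

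The promoter windows of Tnc, Tgfbi and Postn are shown because these 3 genes had the largest changes in either direction among the called matrix genes. The sequences are those of RefSeq on GRCm38.p6, from 250 bases before to 50 bases after the annotated start, 5′ to 3′ on the strand of the gene. Capitals mark matches to 4 motifs searched on both strands. The TATA box was searched as TATAAA and the GC box as GGGCGG. The AP-1 site was searched as TGANTCA. The SMAD-binding element was searched as CAGAC, and it reads GTCTG where it lies on the other strand.
Tnc (chr4:64046966-64047265, minus strand): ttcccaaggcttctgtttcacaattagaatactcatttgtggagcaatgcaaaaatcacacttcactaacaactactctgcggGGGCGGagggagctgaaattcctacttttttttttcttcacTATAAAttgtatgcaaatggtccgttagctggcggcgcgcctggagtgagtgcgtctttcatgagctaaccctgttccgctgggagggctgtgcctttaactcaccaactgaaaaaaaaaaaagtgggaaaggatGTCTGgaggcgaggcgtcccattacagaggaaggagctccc
Tgfbi (chr13:56609336-56609635, plus strand): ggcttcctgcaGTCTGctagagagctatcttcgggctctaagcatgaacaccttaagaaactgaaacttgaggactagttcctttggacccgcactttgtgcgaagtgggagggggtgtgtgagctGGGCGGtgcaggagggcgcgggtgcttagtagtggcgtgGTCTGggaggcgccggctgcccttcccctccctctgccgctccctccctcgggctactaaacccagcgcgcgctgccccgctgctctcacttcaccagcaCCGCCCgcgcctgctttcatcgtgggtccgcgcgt
Postn (chr3:54360857-54361156, plus strand): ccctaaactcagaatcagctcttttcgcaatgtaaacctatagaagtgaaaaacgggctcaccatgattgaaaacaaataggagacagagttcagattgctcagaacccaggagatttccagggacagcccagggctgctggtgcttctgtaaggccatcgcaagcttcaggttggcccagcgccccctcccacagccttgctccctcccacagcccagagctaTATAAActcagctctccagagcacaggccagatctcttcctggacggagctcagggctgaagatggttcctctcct

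Counted from the start site as 0, the Postn window holds TATAAA at -26 and no other match. The Tnc window holds TATAAA at -126, with a GC box at -167 and a SMAD-binding element at 9. In the Tgfbi window there is no TATAAA, and it holds 2 GC boxes and 2 SMAD-binding elements. TGANTCA is in none of the 3 windows, and no matches overlap. Among 32817 promoter windows of the same length, TATAAA is in 13.6%, GGGCGG in 35.6%, TGANTCA in 7.81% and CAGAC in 49.6%. A match describes the letters of the window only.

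The other tested genes of this group were Sparc and Spon1, and neither passed. Sparc encodes osteonectin, a collagen-binding glycoprotein that weakens cell attachment. It stood at 425 and 175 scaled CPM at the wavefront, against 278 and 298 in trailing cells, so the wavefront libraries lay on either side of the trailing ones. For Sparc the log2 fold change was 0.13 ± 0.33 (SE; edgeR adjusted p = 0.950), and it is below 0 with scaling by library size alone. Spon1 encodes F-spondin, a glycoprotein of the floor plate known for its action on axons. It stood at 171 and 169 scaled CPM at the wavefront, against 316 and 205 in trailing cells, with a log2 fold change of -0.61 ± 0.32 (SE; edgeR adjusted p = 0.530).

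The 8 other genes of this group were under the read filter. Sparcl1, the paralog of Sparc known as hevin, had 0 and 3 reads at the wavefront, against 15 and 6 in trailing cells. The wavefront over trailing ratio of its summed reads was 0.187, with a counting interval of 0.0358 to 0.627. In scaled CPM the libraries overlap, with 0 and 17.5 at the wavefront, against 28.4 and 12.6 in trailing cells. Sparcl1 was not called by edgeR with no read filter (adjusted p = 0.270). Thbs1, which encodes thrombospondin-1, had 1 and 3 reads at the wavefront, against 0 and 1 in trailing cells. Thbs3, Spon2, Npnt, Matn2 and Ecm1 had at most 2 reads in any library, and Thbs2 had none.

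Laminin chains showed no call. Laminins are trimers of an alpha, a beta and a gamma chain, and they are the main adhesive proteins of basement membranes. Lamb1, the beta 1 chain, stood at 77.3 and 134 scaled CPM at the wavefront, against 54.9 and 67.1 in trailing cells, without overlap. Its log2 fold change was 0.66 ± 0.34 (SE; edgeR adjusted p = 0.533). Lamc1, the gamma 1 chain present in most laminins, stood at 23.5 and 46.7 scaled CPM at the wavefront, against 36.0 and 50.3 in trailing cells, and the groups overlap. On the log2 scale the Lamc1 fold change was -0.52 ± 0.45 (SE; edgeR adjusted p = 0.807). Lama4, the alpha 4 chain of vessel and nerve laminins, stood at 26.9 and 76.0 scaled CPM at the wavefront, against 53.0 and 52.4 in trailing cells, and its log2 fold change was -0.37 ± 0.42 (SE; edgeR adjusted p = 0.862). Lama4 is thus another gene whose wavefront libraries lie on either side of the trailing ones. Lama1, the alpha 1 chain of early embryonic laminin, had 4 and 3 reads at the wavefront, against 6 and 7 in trailing cells. Lamb2 had 3 and 3 reads at the wavefront, against 8 and 6 in trailing cells. Lama5 had 0 and 3 reads at the wavefront, against 3 and 0 in trailing cells, Lama2 had at most 1 read in any library and Lama3 had none. No laminin chain passed the test, which does not show that their levels were alike.

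The other basement membrane genes were 4, all tested and none called, and they did not move together. Hspg2 encodes perlecan, the large heparan sulphate proteoglycan of basement membranes. It had 25 and 14 reads at the wavefront, against 7 and 10 in trailing cells, which is 42.0 and 81.8 scaled CPM at the wavefront, against 13.3 and 21.0 in trailing cells, without overlap. The log2 fold change of Hspg2 was 1.66 ± 0.49 (SE), and its edgeR adjusted p of 0.0704 missed the threshold. Hspg2 passed in edgeR with no read filter (adjusted p = 0.0420). It did not pass in edgeR with scaling by library size alone (0.356) or in DESeq2 (0.9997). Its log2 fold change was 2.25 without wavefront replicate 1 and 1.35 without wavefront replicate 2. Agrn encodes agrin, another heparan sulphate proteoglycan, known for clustering receptors at the neuromuscular junction. It stood at 70.5 and 76.0 scaled CPM at the wavefront, against 131 and 105 in trailing cells, again without overlap, with a log2 fold change of -0.70 ± 0.33 (SE; edgeR adjusted p = 0.454).

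Nidogens link laminin to type IV collagen. Nid1 stood at 28.6 and 129 scaled CPM at the wavefront, against 51.1 and 48.2 in trailing cells. Its log2 fold change was 0.22 ± 0.43 (SE; edgeR adjusted p = 0.927) and turned to -0.74 without wavefront replicate 2. Nid2 stood at 6.72 and 23.4 scaled CPM at the wavefront, against 28.4 and 33.5 in trailing cells, without overlap. For Nid2 the log2 fold change was -1.48 ± 0.62 (SE; edgeR adjusted p = 0.372). Nid2 shares 437 bases of its 5.174 kb of exons with Rtraf, which had 195 reads. Without strand the reads within those bases cannot be told apart.

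Of the 6 tested microfibril and elastic fibre genes, Fbn2 rose and 5 did not pass. Fbn2, on chromosome 18 (58008623 to 58210487, minus strand, GRCm38), encodes fibrillin-2, the fibrillin of embryonic microfibrils. It had 74 and 26 reads at the wavefront, against 25 and 32 in trailing cells. Its scaled level was 124 and 152 CPM at the wavefront, against 47.3 and 67.1 in trailing cells, and here the wavefront libraries lay close to each other. Fbn2 rose by 1.23 ± 0.33 on the log2 scale (SE; edgeR adjusted p = 0.0322). The Fbn2 call was the least stable of the 5: it passed in 2 of 11 alternatives, with adjusted p between 0.0257 and 1.00 and a log2 fold change between 0.98 and 1.51. Fbn1, the other fibrillin measured, had 5 and 5 reads at the wavefront, against 3 and 2 in trailing cells, a ratio of 2.62 with a counting interval of 0.817 to 9.78.

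Fibulins are glycoproteins that attach to microfibrils, elastin and fibronectin. Fbln1 had the most reads of all 49 genes, with 596 and 93 at the wavefront, against 268 and 172 in trailing cells. It stood at 1001 and 543 scaled CPM at the wavefront, against 508 and 360.5 in trailing cells, without overlap. The fold change of Fbln1 on the log2 scale was 0.85 ± 0.36 (SE; edgeR adjusted p = 0.372), and without wavefront replicate 2 it passed at 1.25 with an adjusted p of 0.0229. Fbln2 stood at 8.40 and 17.5 scaled CPM at the wavefront, against 36.0 and 25.1 in trailing cells. Its log2 fold change of -1.50 ± 0.61 (SE; edgeR adjusted p = 0.340) has the opposite sign to that of Fbln1 and did not pass. Efemp2, which encodes fibulin-4, a protein needed for elastic fibre assembly, stood at 25.2 and 58.4 scaled CPM at the wavefront, against 34.1 and 23.1 in trailing cells. Its log2 fold change was 0.27 ± 0.49 (SE; edgeR adjusted p = 0.922), it turned to -0.14 without wavefront replicate 2, and Efemp2 overlaps exons of Mus81, which had 24 reads.

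Emilin1, an elastin microfibril interface protein, stood at 193.1 and 192.8 scaled CPM at the wavefront, against 155 and 103 in trailing cells, with a log2 fold change of 0.58 ± 0.31 (SE; edgeR adjusted p = 0.561). Ltbp1, a latent TGF-beta binding protein, stood at 67.2 and 87.7 scaled CPM at the wavefront, against 64.4 and 90.1 in trailing cells. The fold change of Ltbp1 was the nearest to 0 of the 20 tested genes, at -0.06 ± 0.34 (SE; edgeR adjusted p = 0.975) on the log2 scale. Its relative Ltbp4 had 4 and 1 reads at the wavefront and 0 in both trailing libraries. With the trailing group set to a floor of 3 reads, the wavefront over trailing ratio of Ltbp4 was 2.19. That value is no lower bound, as the counting interval from the reads themselves starts below it. Ltbp4 was not called by edgeR with no read filter (adjusted p = 0.683). Ltbp3 had 1 and 1 reads at the wavefront, against 2 and 4 in trailing cells. Efemp1, Fbln5 and Eln, which encodes elastin, had at most 1 read in any library.

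**Figure D3:**
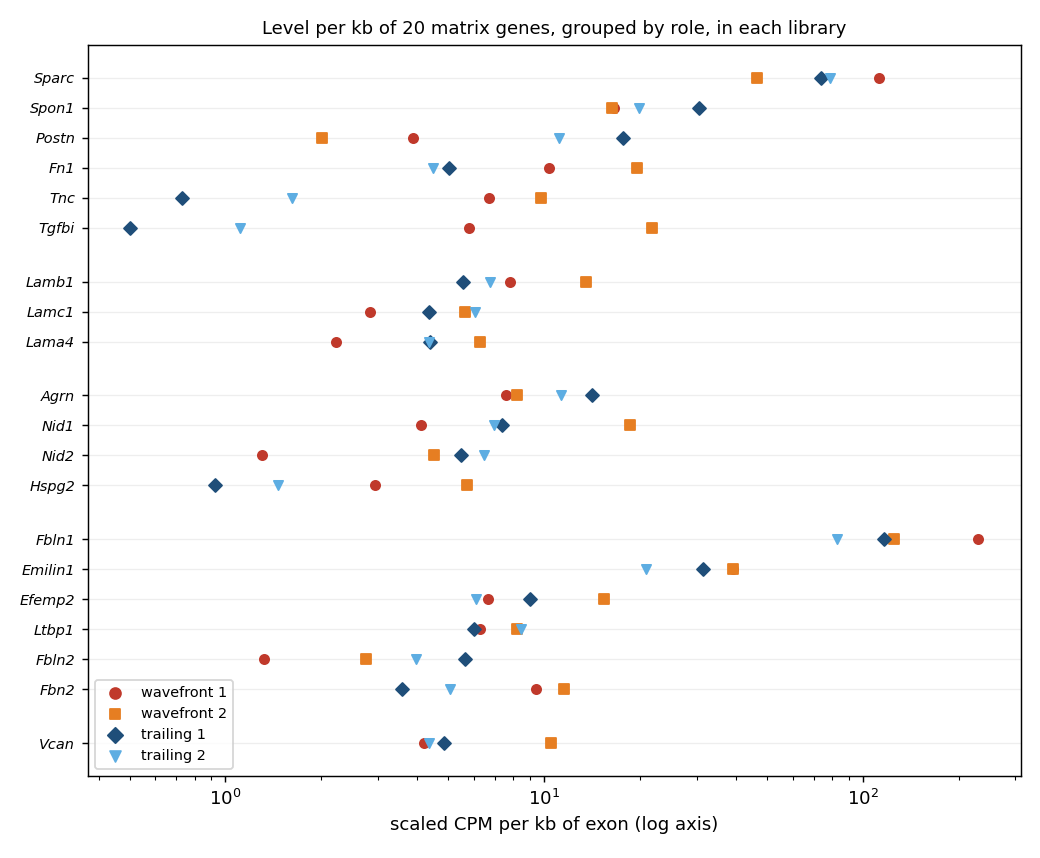
Level of the 20 tested matrix genes in each library, in scaled CPM per kb of exon on a log x axis, grouped by role. Fbln1 and Sparc lie farthest right in every library, while Postn lies to the left of its trailing points in both wavefront libraries and Tgfbi to the right.

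Small leucine-rich proteoglycans bind collagen fibrils and regulate their width, and they are typical of connective tissue cells. All 3 in the list, Lum, Dcn and Bgn, were under the read filter. Lum, which encodes lumican, had 3 and 8 reads at the wavefront and 0 in both trailing libraries. With the trailing group set to a floor of 3 reads, the wavefront over trailing ratio of Lum was 4.81. That value is no lower bound, as the counting interval from the reads themselves starts at 3.29. Lum was called by edgeR with no read filter (adjusted p = 0.0174). Dcn, which encodes decorin, had 0 and 5 reads at the wavefront, against 0 and 1 in trailing cells. Bgn, which encodes biglycan, had 1 and 3 reads at the wavefront, against 0 and 2 in trailing cells. Summed over the 3 genes the level was 6.72 and 93.5 scaled CPM at the wavefront, against 0 and 6.29 in trailing cells, so most of it was in wavefront replicate 2.

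Chondroitin sulphate proteoglycans and link protein gave 1 tested gene of 7. Vcan encodes versican, a large hyaluronan-binding proteoglycan. It had 36 and 26 reads at the wavefront, against 37 and 30 in trailing cells. On the scaled level this is 60.5 and 152 CPM at the wavefront, against 70.1 and 62.9 in trailing cells, so the wavefront libraries lay on either side of the trailing ones. The log2 fold change of Vcan was 0.44 ± 0.36 (SE; edgeR adjusted p = 0.784), and it turned to -0.09 without wavefront replicate 2. Ncan encodes neurocan, a hyaluronan-binding proteoglycan of nervous tissue, and it had 2 and 0 reads at the wavefront, against 8 and 22 in trailing cells. The wavefront over trailing ratio of summed Ncan reads was 0.0874, with a counting interval of 0.0101 to 0.345, and edgeR with no read filter called it lower at the wavefront (adjusted p = 0.00434). Cspg4, Cspg5 and Hapln1, the link protein, had at most 2 reads in any library, and Bcan and Acan had none.

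Levels of different genes can be compared per length of their exons. In scaled CPM per kb, Fbln1 was the highest of the 49 genes in both groups, at 177 ± 74.1 at the wavefront and 99.4 ± 23.8 in trailing cells (SD, n = 2 each). Sparc was next, at 79.2 ± 46.6 at the wavefront and 76.0 ± 3.59 in trailing cells. Fbln1 was above Sparc per kb in each library, at 229 against 112 and 124 against 46.3 at the wavefront, and at 116 against 73.5 and 82.5 against 78.6 in trailing cells. Emilin1 and Spon1 followed in both groups, at 39.1 and 16.4 at the wavefront, against 26.1 and 25.1 in trailing cells. Below them the order changed. At the wavefront the next were Fn1 at 14.9 ± 6.47 and Tgfbi at 13.7 ± 11.2, which do not differ beyond their SDs. In trailing cells Fn1 and Tgfbi stood at 4.75 and 0.807, and the place after Spon1 was that of Postn at 14.4 ± 4.63. Postn at the wavefront stood at 2.94 ± 1.30, in place 20 of the 49. Among laminin chains Lamb1 had the highest level per kb in both groups, at 10.7 at the wavefront and 6.15 in trailing cells.

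The wavefront libraries differed from each other for several of these genes. Replicate 2 over replicate 1 exceeded 1 beyond its 95% counting interval for 6 of the 20 tested genes, and of all tested genes 6.08% did so. These were Nid1 at 4.50 (2.28 to 9.03), Tgfbi at 3.75 (1.63 to 8.66), Lama4 at 2.83 (1.25 to 6.27), Vcan at 2.51 (1.46 to 4.28), Fn1 at 1.88 (1.24 to 2.82) and Lamb1 at 1.74 (1.01 to 2.93). Replicate 2 was below replicate 1 for Sparc at 0.413 (0.273 to 0.604) and Fbln1 at 0.543 (0.432 to 0.677), a direction that 7.76% of all tested genes had. Separate libraries can differ by more than counting error, which is all that these intervals cover. Of the 5 called genes, Tgfbi and Fn1 are in the higher set, and Tnc, Fbn2 and Postn had intervals that include 1. The fold change of 3 of the 20, Nid1, Efemp2 and Vcan, has the other sign without wavefront replicate 2. Reads without molecular identifiers are not independent molecules, and the other intervals given here cover counting error only as well.

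**Figure D4:**
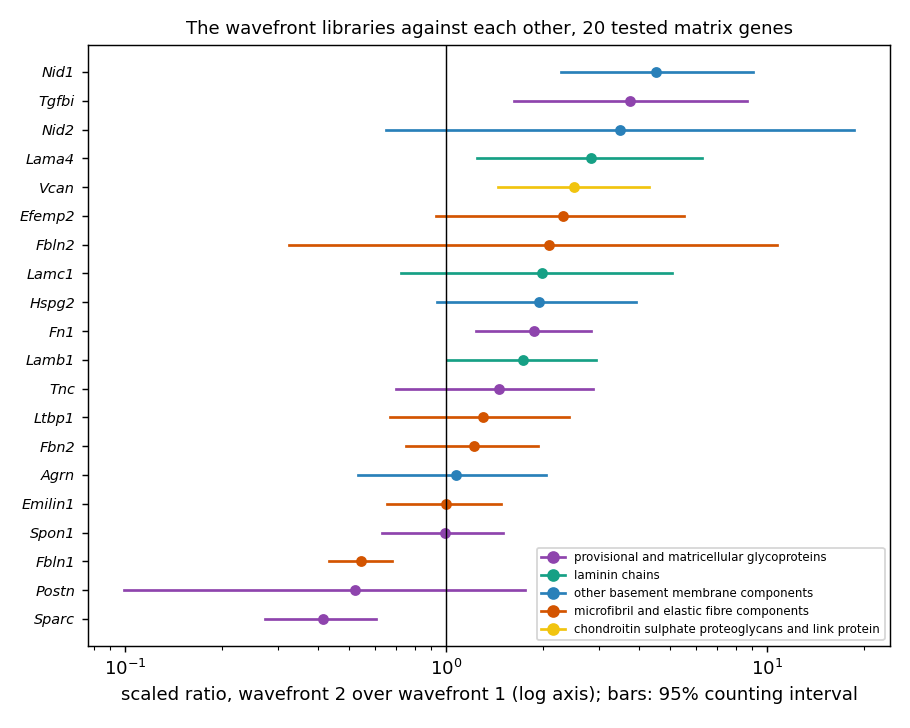
Ratio of scaled levels, wavefront replicate 2 over wavefront replicate 1, on a log x axis for the 20 tested matrix genes, with 95% counting intervals and colours for role. Nid1 at 4.50 and Tgfbi at 3.75 lie farthest to the right, and Fbln1 at 0.543 and Sparc at 0.413 lie to the left with intervals that exclude 1.

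Reads of markers of other cells also differed between the libraries, and not all in the same direction. In the gut mesenchyme list 9 and 15 of 19 genes had a read in the wavefront libraries, against 10 and 9 in the trailing ones. Only Col3a1, Des and Col1a2 of that list were tested by edgeR, and Col3a1 and Des were called. Col3a1, a fibrillar collagen chain, had a log2 fold change of 1.58 (adjusted p = 0.00406), and Des, which encodes the muscle filament protein desmin, had one of 2.84 (adjusted p = 1.35e-05). Des had 73 and 10 reads at the wavefront, against 8 and 6 in trailing cells, which is 123 and 58.4 scaled CPM at the wavefront, against 15.2 and 12.6 in trailing cells. Col3a1 had 132 and 94 reads at the wavefront, against 65 and 58 in trailing cells, which is 222 and 549 scaled CPM at the wavefront, against 123 and 122 in trailing cells. Des was thus higher in wavefront replicate 1 and Col3a1 in wavefront replicate 2. Without Col3a1 and Des the mesenchyme list summed to 68.9 and 374 scaled CPM at the wavefront, against 54.9 and 62.9 in trailing cells. In that remainder most of the difference is in wavefront replicate 2, which also had 110 reads of the erythroid list, against 1 in wavefront replicate 1 and 2 and 0 in the trailing libraries. Epithelial markers had 16 and 10 reads at the wavefront, against 4 and 3 in trailing cells, and mesothelial markers had 0 and 2, against 0 and 0. Endothelial markers had 40 and 12 reads at the wavefront, against 26 and 29 in trailing cells, and leukocyte markers had 2 and 1, against 2 and 5. Glia and Schwann precursor markers summed to 171 and 140 scaled CPM at the wavefront, against 331 and 300 in trailing cells. The part of these cells in the matrix values was not tested. Without wavefront replicate 2, Tnc, Fn1, Fbn2 and Postn still passed in edgeR, with log2 fold changes of 2.56, 1.17, 1.18 and -1.85, Ncan and Fbln1 were called as well, and Tgfbi was not. That fit called 2.02% of all genes it tested. In it Des had a log2 fold change of 3.17 (adjusted p = 9.58e-12) and Col3a1 one of 0.91 (adjusted p = 0.191).

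Summed over all 49 genes, matrix RNA stood at 2633 and 2770 scaled CPM at the wavefront, against 2202 and 1897 in trailing cells. In deposited CPM, which keep ribosomal RNA in the total, the sums were 2887 and 1822 at the wavefront, against 2250 and 2002 in trailing cells, and there the groups overlap. Between the group means of scaled CPM, the microfibril and elastic fibre genes carried most of the difference. They summed to 1441 and 1093 scaled CPM at the wavefront, against 858 and 683 in trailing cells. Their part of the difference was smaller in wavefront replicate 2 than in wavefront replicate 1. In deposited CPM their sums also overlap, with 1580 and 719 at the wavefront, against 876 and 721 in trailing cells. Fbln1 alone took 38.0% (95% exact binomial interval 35.6 to 40.5%) and 19.6% (16.1 to 23.5%) of the matrix reads of the wavefront libraries, against 23.0% (20.7 to 25.6%) and 19.0% (16.5 to 21.7%) in trailing cells. Without Fbln1 the microfibril sum was 440.0 and 549 scaled CPM at the wavefront, against 350.3 and 323 in trailing cells. The sum of provisional and matricellular glycoproteins overlapped between groups, with 831 and 789 scaled CPM at the wavefront, against 854 and 690 in trailing cells. That sum adds the higher Fn1, Tnc and Tgfbi to the lower Postn. Laminin chains summed to 141 and 316 scaled CPM at the wavefront, against 178 and 197 in trailing cells, and the other basement membrane genes to 148 and 309.7, against 223 and 207. Both sums span the trailing values.

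**Figure D5:**
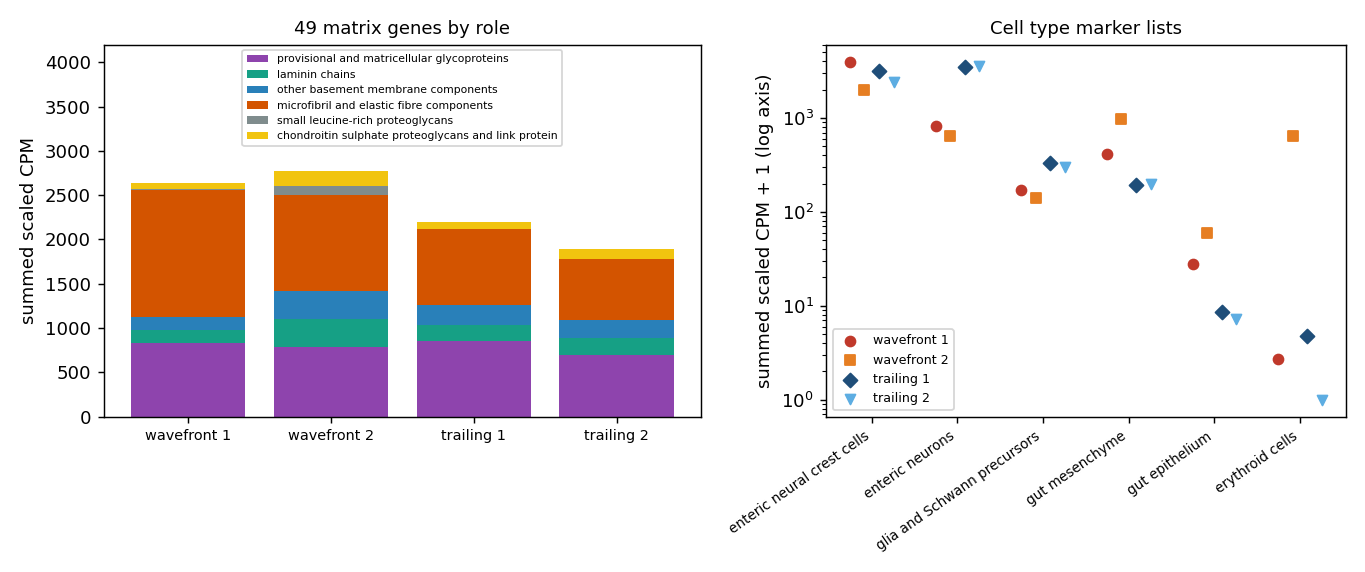
Left, summed scaled CPM (y axis, linear) of the 49 matrix genes in each library, stacked by role. Right, summed scaled CPM + 1 (y axis, log) of 6 cell type marker lists in each library. Matrix sums are 2633 and 2770 at the wavefront, against 2202 and 1897 in trailing cells, and erythroid markers stand out in wavefront replicate 2 alone.

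The receptors for these proteins and the enzymes that modify them were followed as companion lists. Of 33 matrix receptors 23 had a read and 11 were tested by edgeR, and 0 were called. At an unadjusted p under 0.05, 1 of the 11 was higher and 1 lower, against 3.98% and 5.92% of all tested genes. Their median log2 fold change was 0.02, against 0.01 for all tested genes. The most abundant by reads was Rpsa, a ribosomal protein also described as a laminin receptor, at 971 and 917 scaled CPM at the wavefront, against 875 and 721 in trailing cells (log2 fold change 0.24 ± 0.35 SE, edgeR adjusted p = 0.900). Itgb1, the beta 1 chain shared by most fibronectin and laminin integrins, stood at 717 and 549 scaled CPM at the wavefront, against 400 and 333 in trailing cells, without overlap. Its log2 fold change was 0.80 ± 0.33 (SE) and an edgeR adjusted p of 0.375. In limma 0 of 22 receptors were called.

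Of 48 genes for glycan synthesis and crosslinking 43 had a read and 11 were tested by edgeR, and 0 were called. At an unadjusted p under 0.05, 2 of the 11 were higher and 2 lower, against the same 3.98% and 5.92%. Their median log2 fold change was -0.27. Sulf2, an enzyme that removes sulphate from heparan sulphate outside the cell, stood at 53.7 and 46.7 scaled CPM at the wavefront, against 73.9 and 98.5 in trailing cells (log2 fold change -0.73 ± 0.35 SE, edgeR adjusted p = 0.469). Ext2, a subunit of the polymerase of heparan sulphate, stood at 72.2 and 105 scaled CPM at the wavefront, against 53.0 and 48.2 in trailing cells (0.70 ± 0.34 SE, edgeR adjusted p = 0.491). In limma 0 of 40 of these genes were called.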

How the data were processed

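RNA of 4 libraries, 2 per group, was used as deposited in a single table of 27606 rows. The library kit was Nextera XT, per the labels' protocols, and it keeps no strand. STAR 2.5.2b, featureCounts and DESeq2 are named in the submitters' processing notes, with bcl2fastq 2.17, FastQC 0.11.9 and the build GRCm38 (mm10). For annotation release and counting settings, both not given in the sources used here, nothing was assumed. The authors deposited CPM per library, per the file headers. All CPM values are whole multiples of the value of 1 read, so reads were recovered, and 100% of values came out whole within 0.01 reads. In the table, 543070 and 260217 reads belong to the wavefront libraries, against 517000 and 452142 to the trailing ones, and 3 reads are worth 5.52 and 11.5 CPM, against 5.80 and 6.64. The authors' deposited mean of normalised reads is a signal, their fold change and standard error are log2 values, and their Wald statistic is a score; these columns gave no result here. The authors' deposited p-value is unadjusted and was adjusted here.

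Repeated identifiers (428 rows) were dropped, and reads in 4 ribosomal RNA genes were kept in library sizes. The design set limma 3.58.1 as the main test, with a pseudocount of 1, on log2 CPM of genes averaging more than 1 CPM. Beside it, for recovered reads, it set edgeR 4.0.16 (quasi-likelihood F test, TMM, filterByExpr with 10 reads, SE from the fold change and F). The alternative count tool was DESeq2 1.42.0, under R 4.3.3. Group was the only term. Tests are two-sided, with Benjamini-Hochberg adjustment over all genes tested and a threshold of 0.05. Scaled CPM divide recovered reads by library sizes after TMM adjustment. Coordinates and exon lengths come from GENCODE M21 on GRCm38. Exons of another gene overlap 16 of the 49 genes, and among those tested by edgeR the other gene had reads for Nid2 and Efemp2. The matrix genes and the other lists were chosen with earlier results of these data known. Each matrix gene past the threshold was named with its values in every library, each other tested one with its fold change, and companion genes were named where they passed or held the most reads. The alternatives changed scaling, filter, tool, and samples.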

Additional observations from a re-analysis of the deposited data

How the results depend on the processing

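Of the 49 matrix genes, edgeR called 5 as described. It called 3 with scaling by library size alone, 3 with a filter of 20 reads and 0 in DESeq2 (6 of its 16 at an unadjusted p under 0.05). Leaving out 1 library at a time gave 1 to 6 calls: 1 without trailing replicate 1 (Ncan), 3 without trailing replicate 2, 5 without wavefront replicate 1 and 6 without wavefront replicate 2. In limma, where 0 were called, 2 passed with a mean CPM above 10 (Postn and Tnc). With the replicate number as a block (replicate block), 3 passed in limma (Postn, Tgfbi and Ncan) and 4 in edgeR, which lost Fbn2. Deviations of same-numbered libraries correlated at 0.0589, and the labels tie the numbers to nothing. With 2 libraries per group that correlation cannot tell whether same-numbered libraries were paired. No fold change of a called gene changed sign in any alternative. The cause of the changed counts was not tested, except that each omission leaves 1 library in a group, assumed to vary like the other. Receptor and glycan lists gave 0 calls in each edgeR setting and in DESeq2, and were not run under the limma alternatives. The log2 ratio of mean summed CPM, wavefront over trailing, was -0.11 for laminin chains and -0.29 for the other basement membrane genes on deposited CPM, against 0.31 and 0.12 on CPM outside ribosomal RNA. The median log2 fold change of all tested genes was 0.01 with TMM, -0.20 with library size alone and -0.35 in limma on CPM, so folds are read relative to these. With 2 libraries per group and few reads behind most values, smaller changes were not detectable.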
